A study of Mus musculus with 6 samples.

Results

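The C-type lectin receptors for fungi and the proteins that carry their signal were followed as a set of 10 genes, taken by name from 54532 genes in a table of RNA levels. The set holds 4 receptor genes (*Clec7a*, *Clec4n*, *Clec4d* and *Clec4e*), the shared receptor chain gene *Fcer1g*, the kinase gene *Syk*, the phospholipase gene *Plcg2*, and the genes *Card9*, *Bcl10* and *Malt1*. All 10 were found and all 10 passed the filter on low values described below. RNA came from primary mouse macrophages in 2 groups of 3 libraries each. The WT group came from wild-type mice (METRNL+/+) and the KO group from mice labelled METRNL KO (METRNL-/-), where the deleted gene, *Metrnl*, encodes a secreted protein named meteorin-like. Cells of both groups were cultured and then exposed to the yeast *Candida albicans* in vitro for 6 h, so no unexposed library enters the comparison. The labels do not give the tissue the macrophages came from, the age of the mice, the kind of *Metrnl* allele, or whether replicates were separate animals. The p-values therefore reflect only how far these libraries spread, and that spread may be technical.

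Dectin-1, the product of *Clec7a*, binds beta-glucan of the fungal wall and signals through a tyrosine motif in its own tail. Dectin-2 (*Clec4n*), the receptor called MCL or Dectin-3 (*Clec4d*) and Mincle (*Clec4e*) bind mannose-rich or glycolipid ligands and have short tails, and Dectin-2 and Mincle signal through the FcR gamma chain encoded by *Fcer1g*. Either route recruits the kinase SYK, which acts through phospholipase C gamma 2 and a complex of CARD9, BCL10 and the protease MALT1 to switch on NF-kappaB and cytokine genes. In macrophages this pathway is a main route of fungal recognition.

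The receptor genes lie in 2 clusters on mouse chromosome 6 (GRCm38). *Clec4n* (123229843 to 123247021, plus strand), *Clec4d* (123262111 to 123275265, plus strand) and *Clec4e* (123281789 to 123289870, minus strand) are direct neighbours among the lectin genes and span 60 kb. *Clec7a* (129461591 to 129472779, minus strand) lies 6.17 megabases further on, and the deposited table gives it the biotype polymorphic pseudogene while the other 9 genes of the set are protein coding. Stretches before RefSeq gene starts (GRCm38.p6) were used for 8 of the 10 genes, all but *Clec4n* and *Malt1*. The 250 bases before the start are printed for 3 receptor genes, the neighbours *Clec4e*, which was called, and *Clec4d*, which was not, and *Clec7a*, which varied among replicates. Their positions are chr6:123261857-123262106 on the plus strand, chr6:123289872-123290121 on the minus strand and chr6:129472780-129473029 on the minus strand. They are written 5′ to 3′ along the gene, with capitals for matches to the motifs searched.
*Clec4d*: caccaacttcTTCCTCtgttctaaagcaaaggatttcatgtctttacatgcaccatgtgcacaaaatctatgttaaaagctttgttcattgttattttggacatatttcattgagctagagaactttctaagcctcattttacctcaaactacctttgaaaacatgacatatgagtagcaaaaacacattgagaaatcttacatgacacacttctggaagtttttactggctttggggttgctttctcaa
*Clec4e*: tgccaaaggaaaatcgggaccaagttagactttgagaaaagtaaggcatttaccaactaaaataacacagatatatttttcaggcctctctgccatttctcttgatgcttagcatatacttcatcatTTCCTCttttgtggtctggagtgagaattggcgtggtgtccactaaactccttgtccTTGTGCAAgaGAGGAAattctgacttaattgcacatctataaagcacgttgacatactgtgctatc
*Clec7a*: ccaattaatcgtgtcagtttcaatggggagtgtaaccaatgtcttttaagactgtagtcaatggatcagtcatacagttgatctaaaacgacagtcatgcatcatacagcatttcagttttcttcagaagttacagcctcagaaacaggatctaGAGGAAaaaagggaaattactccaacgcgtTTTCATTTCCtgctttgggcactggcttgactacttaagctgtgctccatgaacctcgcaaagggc

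Both strands were searched for 7 motifs. They were the core of the myeloid factor PU.1 (GAGGAA), the joint site of an ETS factor and an IRF (GGAA, any 2 bases, GAAA), AP-1 (TGANTCA), C/EBP (TTGCNNAA), the joint site of ATF4 and C/EBP (TGATGNAA), IRF (GAAA, any 2 bases, GAAA) and the NF-kappaB consensus. The 3 printed stretches held 6 matches, none overlapping another. *Clec4d* had a single PU.1 core, on the opposite strand. *Clec4e* had a PU.1 core on each strand and a C/EBP match, TTGTGCAA, that lay just upstream of the nearer core. *Clec7a* had a PU.1 core and an ETS-IRF match, TTTCATTTCC. Among genes whose stretches are not printed, *Card9*, which was called, had 0 matches, as had *Fcer1g* and *Plcg2*. Of 2 *Syk* starts, 1 had 0 matches and the other a PU.1 core, and *Bcl10*, which was not called, had an NF-kappaB match. A relation between matches and calls was not tested. Among 32841 stretches of the same length before RefSeq starts, 23.3% held the PU.1 core, 9.57% the C/EBP motif, 7.25% the NF-kappaB motif and 2.30% the ETS-IRF motif. A match describes letters in this window and does not show a bound site.

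Levels are in FPKM, fragment counts scaled by gene length and by 1 factor per library, so they can be compared between genes. The 3 values of a group are always listed from replicate 1 to replicate 3. The libraries held between 11026529 and 15724897 reads in genes, and the factor did not follow these numbers. WT replicate 1 and KO replicate 1 held 14309247 and 14772746 reads in genes. Their 157651 and 260863 reads of *Tnf* stood at 5999 and 12441 FPKM. Differences subtract WT from KO after taking log2(FPKM + 1). They were tested with limma over 11689 genes whose mean reached 0.5 FPKM, and called at a Benjamini-Hochberg adjusted p below 0.05. *Metrnl* RNA did not check the labels: it was at 93.5, 63.2 and 69.8 FPKM across the WT libraries and 51.2, 63.6 and 62.8 FPKM across the KO libraries (limma adjusted p = 0.181). KO therefore stands for the label alone. WT replicate 1 and KO replicate 1 stood apart from the other replicates of their groups: the chi-square of their reads against another replicate, divided by its degrees of freedom, was 39.6 to 59.4, against 7.10 for WT replicates 2 and 3 and 2.30 for KO replicates 2 and 3. The extraction text in the labels speaks of retinas, and the 10 retinal markers summed to between 0.771 and 1.40 FPKM in every library, while 10 macrophage markers summed to between 5089 and 9507 FPKM.

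In KO libraries 3 of the 10 genes were higher (*Card9*, *Clec4e* and *Syk*), 1 was lower (*Clec4n*), and 6 did not pass. Over all tested genes 15.7% were called higher, 12.4% lower and 28.0% in either direction. Every KO value lay above every WT value in 5 of the 10 genes and below in 1, as they did in 25.7% and 19.9% of all tested genes, 45.6% together. The median difference of the 10 genes was 0.30 log2, against 0.03 over all tested genes. With each library rescaled to the same total (TPM), 2 of the 10 were higher and 0 lower. Of the 15259 genes then tested 511 were called higher and 1324 lower. In TPM over the same 11689 genes 542 were higher and 1161 lower, against 1833 and 1445 with the deposited scaling.

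**Figure D1:**
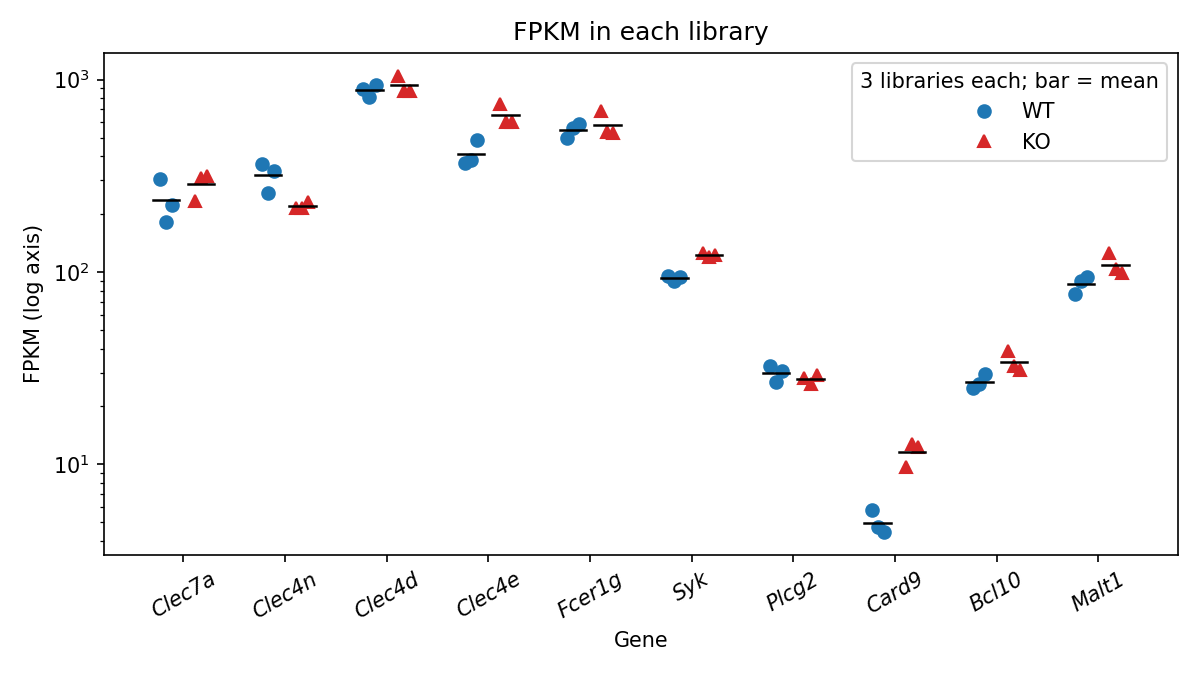
FPKM (log axis) of the 10 genes in each of the 3 WT libraries (circles) and 3 KO libraries (triangles), with the group mean as a bar. *Card9*, *Clec4e* and *Syk* had all KO values above all WT values, as had *Bcl10* and *Malt1*, which were not called. *Clec4n* had all KO values below, and *Card9* was the lowest gene of the set in both groups.

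The receptor genes were among the most abundant RNAs of these cells. *Clec4d* ranked 40, *Clec4e* 84, *Clec4n* 180 and *Clec7a* 190 by mean FPKM among all genes of the table, and *Fcer1g* ranked 76. The order of levels in WT was *Clec4d*, *Fcer1g*, *Clec4e*, *Clec4n*, *Clec7a*, *Syk*, *Malt1*, *Plcg2*, *Bcl10* and *Card9*. Neighbours whose ranges overlapped in WT were *Clec4n* and *Clec7a*, *Syk* and *Malt1*, and *Plcg2* and *Bcl10*. In KO *Clec4e* stood second, level with *Fcer1g* within their ranges, *Clec7a* stood above *Clec4n* with no overlap, and *Bcl10* stood above *Plcg2* with no overlap. *Syk* and *Malt1* still overlapped in KO.

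*Clec4e* encodes Mincle, which binds glycolipids of mycobacteria and fungi and is known as an inducible receptor. Its RNA measured 367, 381 and 485 FPKM across the WT libraries and 750, 605 and 602 FPKM across the KO libraries. Every KO library lay above every WT library, and KO replicate 1 was the highest. The group means were 411 ± 64.6 and 652 ± 84.6 FPKM (SD, n = 3 each) for WT and KO, 1.59-fold higher, with a log2 difference of 0.67 ± 0.149 (SE; 95% confidence interval 0.31 to 1.03; limma adjusted p = 0.0203). Between 22257 and 47628 reads lay behind each value. The call ended without WT replicate 1 (limma adjusted p = 0.0516) or its replicate 2 (0.0658), and without replicate 2 (0.0551) or 3 (0.0543) of KO. It also ended with no filter on low values (0.0582) and with replicate number as a block (0.0944), while the direction held.

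*Clec4n* encodes Dectin-2, which recognises fungal mannans. Its RNA measured 363, 257 and 336 FPKM across the WT libraries and 216, 215 and 231 FPKM across the KO libraries. All KO libraries lay below all WT libraries, and they lay closer together than the WT libraries did. The means were 319 ± 55.1 and 221 ± 8.91 FPKM (SD, n = 3 each), with a log2 difference of -0.51 ± 0.139 (SE; 95% confidence interval -0.85 to -0.18; limma adjusted p = 0.0367). The call ended without WT replicate 1 (limma adjusted p = 0.0772), without its replicate 3 (0.114) and without any one KO library (0.0785, 0.114 and 0.0907). It also ended without both replicate 1 libraries (0.093), in TPM (0.0768), with no filter (0.0877) and with replicate number as a block (0.0936). The difference stayed between -0.66 and -0.40 in all 17 alternatives.

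*Clec4d* lies between these genes and encodes a receptor that pairs with Mincle. It was the most abundant gene of the set, at 892, 815 and 938 FPKM across the WT libraries and 1047, 876 and 875 FPKM across the KO libraries. The groups overlapped, and KO replicate 1 alone lay above all WT libraries. The log2 difference was 0.08 ± 0.116 (SE; 95% confidence interval -0.20 to 0.36; limma adjusted p = 0.66), so the interval holds changes of either sign, and its sign turned in TPM, with quantile normalization and without KO replicate 1.

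Ratios of neighbouring genes within a library do not depend on how libraries were scaled. *Clec4e* stood at 1.01, 1.48 and 1.44 times the FPKM of *Clec4n* in WT replicates 1 to 3 and at 3.47, 2.81 and 2.61 times in KO replicates 1 to 3. The groups did not overlap, and the ratio was 2.28-fold higher in KO. *Clec4d* stood at 2.43, 2.14 and 1.93 times *Clec4e* in WT and at 1.40, 1.45 and 1.45 times in KO, again with no overlap. Each of these has p = 0.1 in a two-sided exact permutation test, the smallest that 3 against 3 libraries allow, and an adjusted p of 0.143 over the 10 ratios compared, as has every other ratio below whose groups did not overlap. Of the summed FPKM of the 4 receptor genes, *Clec4e* made up 19.0% to 24.5% in WT and 29.7% to 33.4% in KO, and *Clec4n* 15.7% to 18.8% in WT and 9.61% to 11.4% in KO.

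**Figure D2:**
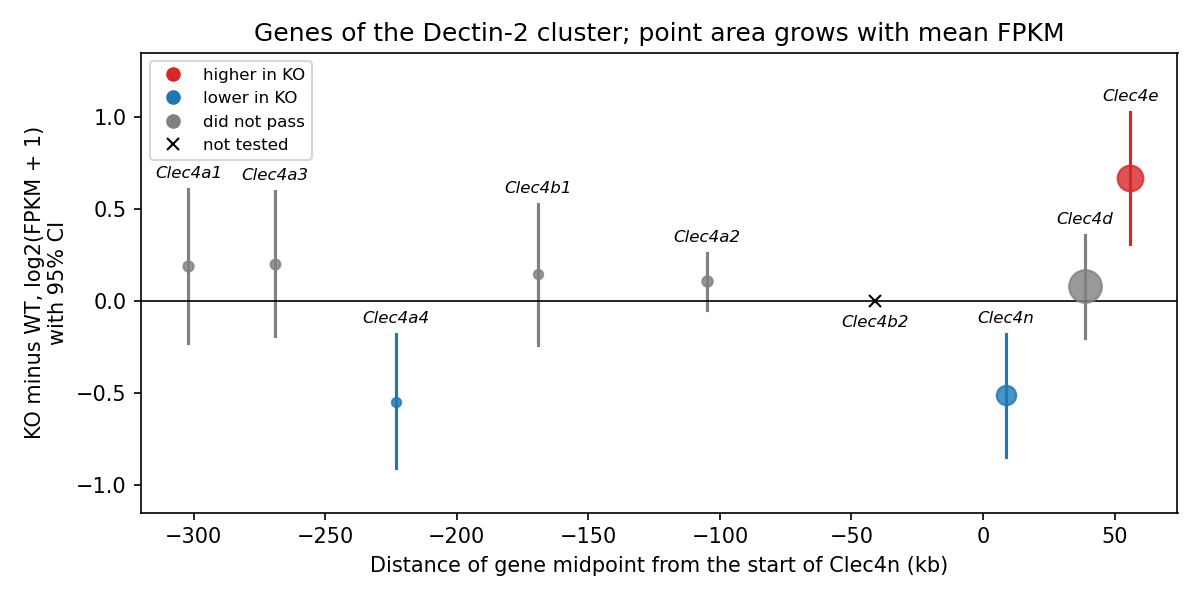
KO minus WT difference in log2(FPKM + 1), with its 95% confidence interval, of the genes of the Dectin-2 cluster, by distance of the gene's midpoint from the start of *Clec4n* in kb. The abundant neighbours *Clec4n*, *Clec4d* and *Clec4e* had differences of -0.51, 0.08 and 0.67.

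The other genes of the Dectin-2 cluster were far less abundant. *Clec4a2*, *Clec4a1* and *Clec4a3* had differences of 0.11, 0.19 and 0.20 log2 and did not pass, the first being the highest of them at a mean of 21.5 FPKM. Of the 6 listed neighbours 5 were tested, and *Clec4a4* alone was called, going from 0.898 ± 0.0816 to 0.313 ± 0.252 FPKM (SD, n = 3 per group; limma adjusted p = 0.0389). That call rests on only 11, 9 and 8 reads in the WT libraries and 6, 2 and 2 in the KO libraries. *Clec4b2* was below the filter. These genes are paralogues, and the sources do not say how reads shared between them were counted.

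*Clec7a*, the Dectin-1 gene, did not differ beyond the spread of its replicates. Its RNA measured 305, 182 and 222 FPKM across the WT libraries and 234, 308 and 315 FPKM across the KO libraries. WT replicate 1 was the highest of its group and KO replicate 1 the lowest of its own, so the groups overlapped. The log2 difference was 0.29 ± 0.213 (SE; 95% confidence interval -0.22 to 0.81; limma adjusted p = 0.353). Without both replicate 1 libraries it was 0.63 and passed (limma adjusted p = 0.0144), and in the other 16 alternatives it did not pass.

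Next to *Clec7a*, *Olr1*, the gene of the oxidised lipoprotein receptor LOX-1, rose in KO from 111 ± 22.7 to 193 ± 30.2 FPKM (SD, n = 3 per group; limma adjusted p = 0.0208). Of the 7 listed neighbours in the Dectin-1 cluster 6 were tested. *Clec12a*, which encodes an inhibitory receptor, was higher at a low level (3.43 ± 0.243 to 4.39 ± 0.243 FPKM, adjusted p = 0.0367), *Clec1a* was lower (1.18 ± 0.297 to 0.538 ± 0.148 FPKM, adjusted p = 0.0389), and *Clec2d*, *Clec9a* and *Clec12b* did not pass. In TPM over the same genes 1 was higher and 0 lower. *Clec1b*, which was below the filter, overlaps *Clec9a* on the same strand. The sources do not say how reads in shared bases were counted, so the values of these low genes are uncertain.

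*Fcer1g* encodes the FcR gamma chain, whose ITAM recruits SYK. It stood at 495, 559 and 586 FPKM across the WT libraries and 686, 535 and 527 FPKM across the KO libraries. The groups overlapped, and the log2 difference was 0.09 ± 0.136 (SE; 95% confidence interval -0.24 to 0.41; limma adjusted p = 0.682), with a sign that turned in quantile normalization, without KO replicate 1 and without both replicate 1 libraries. Relative to *Fcer1g* in the same library, *Clec4e* went from 0.750 ± 0.0735 in WT to 1.12 ± 0.0253 in KO and *Clec4n* from 0.589 ± 0.138 to 0.385 ± 0.0633 (SD, n = 3 each), both with no overlap and an exact permutation p = 0.1. The ratios of *Clec4d* and *Clec7a* to *Fcer1g* overlapped between the groups.

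Of 3 tested genes of other receptors that use this chain 2 were lower. *Fcgr1* and *Fcgr4*, genes of activating IgG receptors, fell 3.83-fold and 4.11-fold, to 1.24 ± 0.416 and 0.934 ± 0.300 FPKM (SD, n = 3; limma adjusted p = 0.00419 and 0.00517). *Fcgr3* averaged 106 ± 9.53 and 92.8 ± 8.22 FPKM (SD, n = 3 each) and did not pass (limma adjusted p = 0.217). *Tyrobp*, the gene of the related chain DAP12, stood at 324 ± 65.6 and 430 ± 24.0 FPKM (SD, n = 3 each), with every KO value above every WT value, and did not pass (adjusted p = 0.0889).

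*Syk* encodes the kinase on which all 4 receptors converge. Its RNA measured 95.1, 89.9 and 94.1 FPKM across the WT libraries and 126, 119 and 123 FPKM across the KO libraries. The replicates of each group lay within a few FPKM of each other and the groups did not overlap. The means were 93.0 ± 2.74 and 123 ± 3.07 FPKM (SD, n = 3 each), 31.9% higher in KO, with a log2 difference of 0.40 ± 0.0635 (SE; 95% confidence interval 0.24 to 0.55; limma adjusted p = 0.00695). The call held without any single library. It ended in TPM (limma adjusted p = 0.136) and with replicate number as a block (0.0645).

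*Plcg2*, the phospholipase gene downstream of SYK, stood at 32.3, 26.9 and 30.7 FPKM across the WT libraries and 28.2, 26.2 and 29.2 FPKM across the KO libraries. The groups overlapped, with a log2 difference of -0.10 ± 0.0883 (SE; 95% confidence interval -0.31 to 0.11; limma adjusted p = 0.442). Relative to *Syk* in the same library it went from 0.322 ± 0.0206 in WT to 0.227 ± 0.00962 in KO (SD, n = 3 each), with no overlap and an exact permutation p = 0.1.

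*Syk*, *Plcg2*, *Bcl10* and *Malt1* also serve the B cell receptor, and B cell RNA differed between the groups. The 11 B cell markers summed to between 592 and 769 FPKM in the WT libraries and between 30.8 and 39.7 FPKM in the KO libraries, and all 10 that were tested were lower. Their part in the values of these 4 genes was not tested. In bulk RNA, fewer cells of a type and less RNA per cell cannot be told apart. Summed macrophage markers moved the other way, from 5089 to 5901 FPKM in WT to 8787 to 9507 FPKM in KO. Of the 10 markers 4 were higher, among them *Adgre1* (1.45-fold) and *Lyz2* (2.01-fold), and 0 were lower. *Lyz2* (means of 2204 and 4431 FPKM in WT and KO) and *Cd14* (1800 and 2674 FPKM) were the most abundant, and *Cd14* did not pass. *Mpeg1* had every KO value below every WT value (means of 376 and 335 FPKM) and did not pass. *Aif1* also had a lower KO mean (2.59 and 2.24 FPKM) and did not pass. Neutrophils also carry the 4 receptors, and the 13 neutrophil markers summed to between 976 and 1302 FPKM in WT and between 725 and 833 FPKM in KO. Of the 11 tested, 0 were higher and 3 were lower, namely *S100a8* (734 ± 211 to 361 ± 68.6 FPKM), *Mmp8* (60.3 ± 9.69 to 25.0 ± 1.57 FPKM, SD, n = 3 each) and *Il1r2* (to 3.18 ± 0.107 FPKM, SD, n = 3). *S100a8* was the most abundant of the list, and *S100a9* measured 297 ± 70.2 FPKM in WT against 304 ± 24.2 FPKM in KO. *Ly6g*, *Mpo*, *Elane*, *Ltf*, *Camp* and *Ngp* were at or below 2.58 FPKM in every library. Of 8 tested dendritic cell markers 6 were lower, with sums of 148 to 239 FPKM in WT and 42.9 to 55.3 FPKM in KO. The most abundant in WT were *Ccl22*, *Fscn1* and *Ccr7*, at means of 67.4, 64.1 and 60.5 FPKM in WT and 16.8, 11.8 and 13.8 FPKM in KO. *Xcr1* had every KO value above every WT value (means of 2.58 and 3.42 FPKM in WT and KO) and did not pass. T and NK cell markers were lower in 4 of 4 tested genes, from sums of 11.6 to 13.4 FPKM in WT to at most 2.96 FPKM in KO. Mast cell and mesothelial or fibroblast markers were lower in 4 of 4 and 3 of 5 tested genes, at sums of at most 14.2 FPKM in any library. The part of macrophage, neutrophil and dendritic cell RNA in the receptor values was not tested.

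*Card9* encodes the adaptor that links SYK to BCL10 and MALT1 in myeloid cells. It was the lowest gene of the set and had its largest fold. Its RNA measured 5.79, 4.70 and 4.46 FPKM across the WT libraries and 9.75, 12.8 and 12.3 FPKM across the KO libraries, on 127 to 463 reads. KO replicate 1 was the lowest KO library and still lay above every WT library. The means were 4.99 ± 0.710 and 11.6 ± 1.63 FPKM (SD, n = 3 each), 2.33-fold higher in KO, with a log2 difference of 1.07 ± 0.130 (SE; 95% confidence interval 0.76 to 1.39; limma adjusted p = 0.00262). It was called in all 17 alternatives, with adjusted p from 0.00108 to 0.0371.

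**Figure D3:**
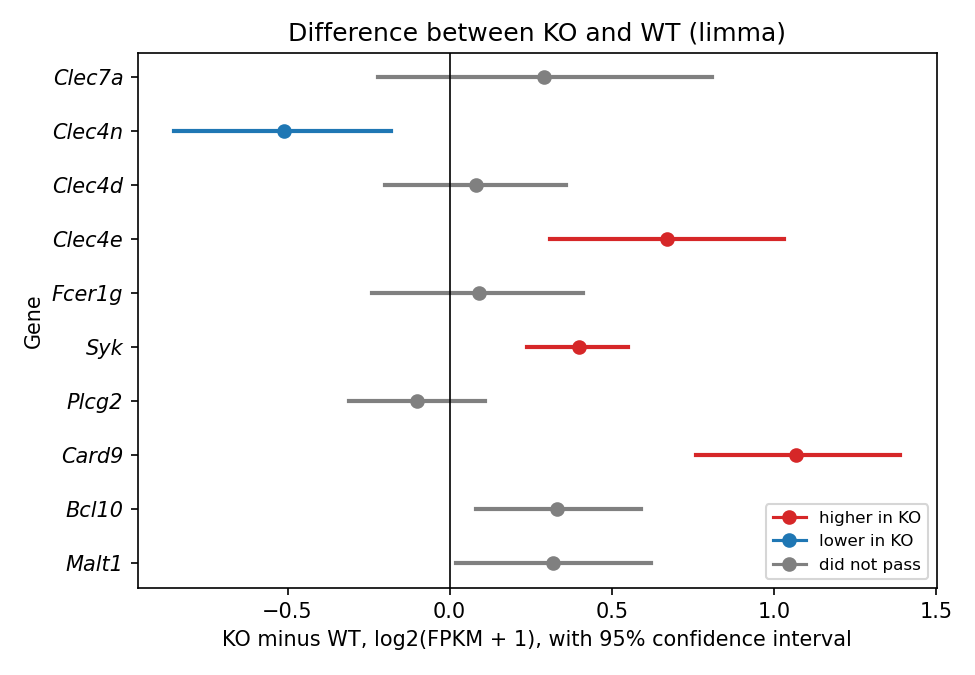
KO minus WT difference in log2(FPKM + 1) of each of the 10 genes, with its 95% confidence interval, ordered from receptors to the CARD9 complex and coloured by the limma call. *Card9* had the largest difference (1.07) and *Clec4n* the only called decrease (-0.51).

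*Bcl10* and *Malt1* encode the partners that CARD9 brings together, MALT1 being a protease. *Bcl10* stood at 25.1, 26.1 and 29.4 FPKM across the WT libraries and 38.7, 32.6 and 31.0 FPKM across the KO libraries. *Malt1* stood at 76.5, 90.3 and 94.3 FPKM across the WT libraries and 125, 104 and 98.7 FPKM across the KO libraries. Both genes had every KO value above every WT value, and neither passed (limma adjusted p = 0.0607 for *Bcl10*, log2 difference 0.33 ± 0.106 SE, and 0.102 for *Malt1*, 0.32 ± 0.123 SE). *Bcl10* passed with voom on recovered reads (adjusted p = 0.0423). The ratio of *Bcl10* to *Malt1* was 0.309 ± 0.0197 in WT and 0.313 ± 0.00300 in KO (SD, n = 3 each), with overlapping groups, whereas *Card9* over *Bcl10* went from 0.188 ± 0.0400 to 0.347 ± 0.0820 with no overlap (exact permutation p = 0.1).

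The wider pathway was read from lists of its known genes, against a median difference of 0.03 log2 and 28.0% called over all tested genes. Of 28 genes of proximal kinases, adaptors and phosphatases 3 were higher and 3 lower, with a median difference of 0.14 log2. The Src-family kinase gene *Fgr* rose 1.71-fold to 24.1 ± 0.477 FPKM (SD, n = 3; limma adjusted p = 0.00108), and the adaptor gene *Lat2* and the ubiquitin ligase gene *Cbl* rose 1.61-fold and 1.37-fold. The exchange factor gene *Vav2*, the kinase gene *Pik3cd* and *Ptpn6*, which encodes the phosphatase SHP-1, fell 2.03-fold, 2.17-fold and 1.33-fold. Without both replicate 1 libraries 8 were higher and 6 lower, and in TPM over the same genes 1 and 3. Over all 11689 tested genes 2252 were higher and 1908 lower in the former setting. In the latter they were 542 and 1161.

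From the CARD complex to NF-kappaB, 1 of 21 tested genes was higher and 5 were lower, with a median of -0.01 log2. *Chuk*, an IkappaB kinase gene, rose from 8.89 ± 0.153 to 12.0 ± 0.787 FPKM (SD, n = 3 per group; limma adjusted p = 0.00971). Among those lower were *Map3k14*, *Rbck1*, *Casp8* and *Rnf31*, with *Rbck1* and *Rnf31* encoding subunits of the linear ubiquitin ligase. In TPM over the same genes 0 were higher and 3 lower. Of 9 genes of known MALT1 substrates 3 were lower, with a median of -0.10 log2, namely *Cyld* (2.48 ± 0.200 to 1.29 ± 0.0850 FPKM, limma adjusted p = 0.00388), *Map3k14* and *Rbck1*, the last pair being in both lists. Without both replicate 1 libraries 6 of the 9 were lower, as were 1908 of all 11689 tested genes. Of 13 calcium and NFAT genes 3 were higher and 5 lower, again with a median of -0.10 log2. *Egr2* rose from 55.7 ± 15.8 to 146 ± 25.7 FPKM (SD, n = 3 per group; limma adjusted p = 0.00756), while *Nfatc1* fell from 12.5 ± 1.98 to 3.44 ± 0.0185 FPKM (adjusted p = 3.78e-04) and *Egr3*, *Itpr3* and *Nfatc3* fell as well. In TPM over the same genes 1 of the 13 was higher and 4 were lower. The B cell markers above were lower in the same libraries, with a median of -3.47 log2, and their part in the values of these lists was not tested.

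Of 14 genes of other fungal receptors 5 rose and 2 fell, with a median of 0.31 log2. *Tlr4* rose from 5.75 ± 0.588 to 15.5 ± 1.37 FPKM (SD, n = 3 per group; limma adjusted p = 5.01e-04), *Tlr2* 2.01-fold, the scavenger receptor gene *Scarf1* 2.04-fold, and *Itgb2* and *Itgam*, which encode complement receptor 3, 1.69-fold and 1.36-fold. *Marco* fell from 78.8 ± 5.52 to 20.8 ± 4.12 FPKM (adjusted p = 4.70e-04) and *Tlr9* fell 2.56-fold. Of 8 tested genes of other C-type lectins 4 rose and 2 fell, with a median of 0.48 log2. *Mgl2* and *Clec10a*, a pair of galactose-type lectin genes, rose 2.88-fold and 2.62-fold, and the mannose receptor gene *Mrc1* and *Cd302* rose 1.73-fold and 1.45-fold, while *Colec12* fell 3.24-fold and *Cd209a* fell from 3.58 ± 2.40 to 0.160 ± 0.208 FPKM (SD, n = 3 per group; limma adjusted p = 0.0297). *Cd209a* is also among the dendritic cell markers. In the same libraries the dendritic cell and B cell markers summed lower and the macrophage markers summed higher, as given above. Their part in the values of these receptor genes was not tested.

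**Figure D4:**
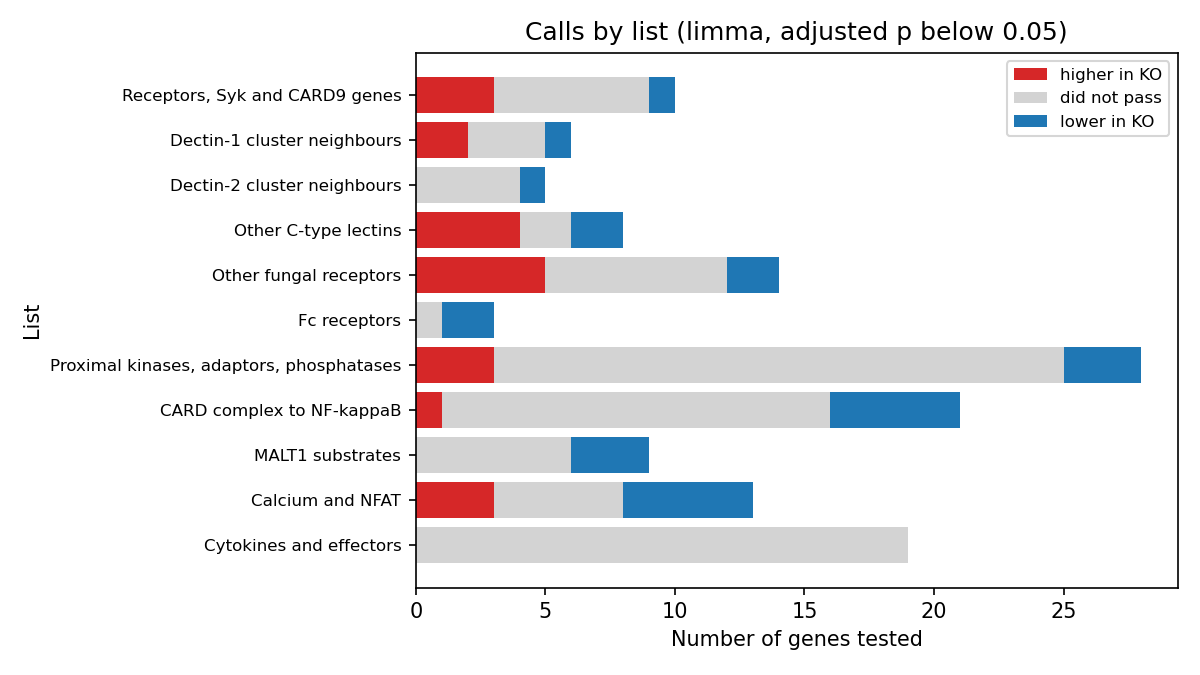
Number of tested genes in each list that were higher, lower or not called in KO (limma, adjusted p below 0.05). The 10 genes of the receptors, SYK and CARD9 are the top bar, and 0 of the 19 cytokine and effector genes were called.

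The cytokine and effector genes that the pathway drives were not called. Of 19 tested genes 0 passed in limma, 0 had an unadjusted p below 0.05, and 0 passed with voom on recovered reads. The median difference was -0.30 log2. *Il1b* stood at 1056, 2684 and 3293 FPKM across the WT libraries and 4647, 1291 and 1199 FPKM across the KO libraries. *Tnf* measured 5999, 8119 and 10789 FPKM in WT libraries and 12441, 5309 and 5276 FPKM in KO. For *Il6* they were 12.5, 89.0 and 80.1 FPKM in WT against 203, 15.4 and 14.9 FPKM in KO. In all 19 genes WT replicate 1 was the lowest WT library and KO replicate 1 the highest KO library, a pattern that 22.4% of all tested genes had. Without both replicate 1 libraries 16 of the 19 were called lower in KO, as were 1908 of all 11689 tested genes.

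Of the 10 genes 4 had this pattern, 2 had its opposite, and *Clec4d*, *Clec4n*, *Syk* and *Plcg2* had neither. *Clec4e*, *Fcer1g*, *Bcl10* and *Malt1* had the same order as the cytokines, with WT replicate 1 lowest and KO replicate 1 highest in its group. The FPKM summed over all genes had that order too, at 311409, 340226 and 365689 in WT and 412048, 335015 and 334570 in KO. The part of library scaling in the order of these genes was not tested. *Clec7a* and *Card9* had the opposite order, which 22.5% of all tested genes had. The 3 libraries with the most *Clec7a* RNA (WT replicate 1 and KO replicates 2 and 3, 305 to 315 FPKM) had the lowest *Il1b*, *Tnf* and *Il6* values, and the 3 with the least (182 to 234 FPKM) had the highest. The 6 libraries lay in separate groups for *Clec7a*, so no correlation with the cytokine genes is given.

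**Figure D5:**
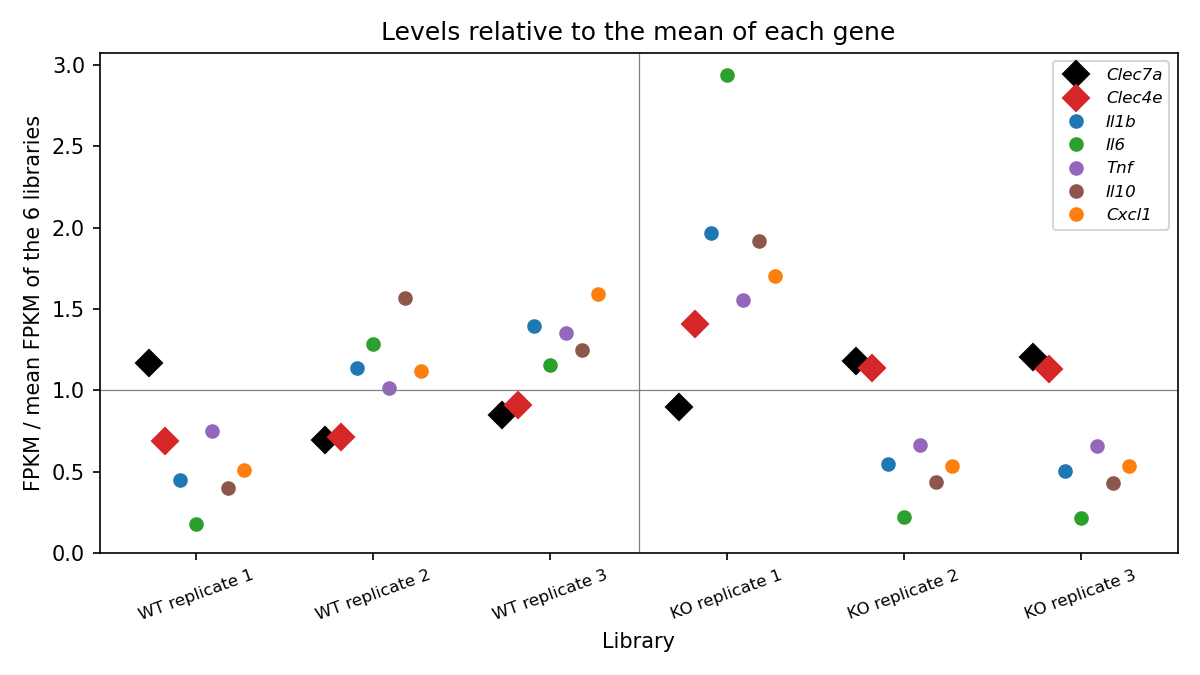
FPKM in each library divided by the mean of that gene over the 6 libraries, for *Clec7a* and *Clec4e* (diamonds) and 5 cytokine genes (circles). *Clec7a* was high where the cytokine genes were low, in WT replicate 1 and KO replicates 2 and 3, while *Clec4e* was above its mean in the 3 KO libraries.

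Genes whose levels followed each receptor gene most closely were ranked by Pearson r of log2(FPKM + 1) over the 6 libraries, among 5098 other genes whose mean reached 5 FPKM. These are descriptions over libraries that share a genotype and a replicate 1 contrast. For *Clec7a* they were *Lasp1* (r = 0.9992), *Gpi1* and *Stab1*, and 95 genes had r above 0.95. For *Clec4e* they included *Chmp2b* (0.9984) and *Fosl2*, with 264 genes above 0.95. For *Clec4n* they were *Piwil2* (0.9967), *Ppp6r1* and *Apoe*, with 37. For *Clec4d* they were *Pilra* (0.9869), *Mark2* and *H3f3a*, with 16.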

How the data were processed

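RNA of primary macrophages was sequenced in 3 WT and 3 KO libraries, grouped and numbered by their titles. Per the labels' protocols, Trizol was used for extraction and an Illumina kit for library construction. Per the submitters' processing notes, reads were placed on GRCm38 (mm10). No source used here names the aligner, the counter, the gene annotation or the strand setting. Per gene and library the authors deposited FPKM, with gene positions and lengths. Multiplied by gene length, all FPKM values of a library (100%) were whole steps of 1 size to within 0.05 of a step, and the number of steps is given as reads.

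Tests used limma 3.58.1 in R 4.3.3 on log2(FPKM + 1), with genotype alone, eBayes with a trend, and Benjamini-Hochberg adjustment over the 11689 genes whose mean of 6 libraries reached 0.5 FPKM. This scale understates changes of low genes. Folds are ratios of mean FPKM. Ratios within a library were compared by two-sided exact permutation. The fit was tested on simulated data with independent libraries. These lacked the replicate 1 contrast of the real libraries, so that test does not cover it.

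The 10 genes and the lists were chosen with earlier results of these data known. Named genes are the 10, *Metrnl*, up to 5 called genes with the smallest p from each pathway list, and the 3 genes most like each receptor gene. Some genes that this rule names are not reported here. Genes named beyond this rule, namely called genes past the first 5 of a list, uncalled neighbours, cytokines, Fc receptors, *Tyrobp* and cell type markers, were chosen after their values were seen. Replicate numbers were not taken to pair libraries. Alternatives were another pseudocount (0.1), no filter, a filter at 2 FPKM, TPM, quantile normalization, a replicate block, voom on recovered reads, robust eBayes, eBayes without the trend, and leaving out each library or both replicate 1 libraries.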

Additional observations from a re-analysis of the deposited data

How the results depend on the processing

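*Card9* kept its direction and call in all 17 alternatives, *Syk* its direction in 17 and its call in 14, *Clec4e* its call in 11 and *Clec4n* its call in 7, the direction of both holding in 17. With no filter on low values, 0 of the 10 genes were called lower. In TPM 0 were lower, and 511 of the 15259 genes then tested were higher. When TPM was restricted to the same 11689 genes, a choice made after seeing the data, 0 of the 10 were lower and 542 genes were higher. Same-numbered WT and KO libraries deviated from their group means with correlations of -0.505, -0.191 and -0.158 across genes. In both groups replicate 1 stood apart, which shapes these values, so they cannot show whether the numbers pair libraries. With the replicate block 1 of the 10 was higher and 0 were lower, with 479 genes higher and 604 lower over the table, and *Clec4e*, *Clec4n* and *Syk* had adjusted p of 0.0944, 0.0936 and 0.0645 (limma). At a mean of at least 2 FPKM 876 genes were lower, among fewer genes tested. Leaving out 1 library gave 2 to 3 higher and 0 to 1 lower of the 10, and 912 to 1681 higher and 851 to 1337 lower genes. The counts of higher and lower genes were 912 and 851 without KO replicate 2, 914 and 852 without KO replicate 3, and 1062 and 879 without WT replicate 3, and 1167 genes were higher without WT replicate 2. Without both replicate 1 libraries 4 of the 10 were higher and 0 lower, with 2252 genes higher and 1908 lower over the table. The sign of *Clec4d* turned in TPM (-0.01, and -0.01 over the same genes), with quantile normalization (-0.04) and without KO replicate 1 (-0.01), leaving out 1 library giving -0.01 to 0.12. The sign of *Fcer1g* turned with quantile normalization (-0.01), without KO replicate 1 (-0.04, leaving out 1 library giving -0.04 to 0.15) and without both replicate 1 libraries (-0.11). The cause of these changes was not tested. The 3 libraries of each group limit the precision of every value, and *Card9* rests on the fewest reads of the set, 127 to 463 per library.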
